A study of Mus musculus with 8 samples.

Results

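The Nodal pathway genes described here are Nodal, Gdf3, Tdgf1, Acvr2b, Foxh1, Lefty1, Lefty2, Cer1 and Smad7. They are the 9 features whose symbol in the deposited tables equals one of these names, out of 21069 features in the day 5 tables and 19011 in the day 0 table. Each of the 9 was listed in all 8 libraries. The series profiled polyadenylated RNA of 46C cells, a mouse embryonic stem cell line labelled as C57BL/6 in which Sox1, a neural gene, is tagged with green fluorescent protein. The day 5 groups were a line labelled LincNDIME_KO (here KO), its wild type (WT), a line named for a short hairpin to Mef2c (shMef2c) and the matching control hairpin line (shCtrl), all grown as aggregates in serum replacement medium and labelled neural progenitor cells. The day 0 groups were the same 4 lines as stem cells on irradiated feeder fibroblasts with serum and the cytokine LIF. Each group is 1 library, so no difference below has a replicate check or a p-value, and every statement describes these libraries. How many clones stand behind the KO and hairpin lines is not stated here.

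Nodal is a secreted ligand of the TGF-beta family that patterns the early embryo. It binds type I and type II activin receptors together with an EGF-CFC co-receptor, and the activated Smad2 and Smad3 proteins enter the nucleus with Smad4 and bind DNA with partners such as Foxh1. The pathway sustains mesendoderm formation, holds back neural differentiation in the epiblast, and switches on its own ligand and its own secreted inhibitors, the Lefty proteins, so that signalling is both amplified and limited.

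Estimated reads assigned to genes came to between 25996204 and 26834802 in the day 5 libraries and between 20312032 and 20883674 in the day 0 libraries. Mef2c stood at 0.12 FPKM in shMef2c against 0.50 FPKM in shCtrl at day 5, and at 0.10 in KO against 0.45 in WT. At day 0 it stood at 0.37 RPKM in the library labelled shMef2c (44 estimated reads) against 0.16 RPKM in shCtrl (20). Day 0 Mef2c thus does not bear out the label, but at levels this far below 1 it cannot settle it. That library is called the library labelled shMef2c. No feature is named NDIME, and its deletion was not checked. The naive pluripotency markers, 10 genes, were all at 52.3 RPKM or more in each day 0 library labelled stem cells. All 10 neural progenitor markers were at 1 FPKM or more in WT and shCtrl at day 5, 9 in KO and 5 in shMef2c, so the markers go with the neural progenitor label less well in shMef2c.

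Promoter sequence from RefSeq on the GRCm38.p6 build was matched for Nodal, Tdgf1, Cer1 and Acvr2b. Windows of the other members, Smad7 among them, were not read. The 250 bases before the start site are shown for Nodal and Tdgf1, whose levels ran in the same order in the day 5 libraries, and for Cer1, whose levels did not. Capitals mark matches on either strand to AATNNACA, a Foxh1 motif, or to CAGAC, a Smad-binding motif, and each sequence is printed 5′ to 3′ on the gene's strand.
Nodal, chr10:61417722-61417971, plus strand: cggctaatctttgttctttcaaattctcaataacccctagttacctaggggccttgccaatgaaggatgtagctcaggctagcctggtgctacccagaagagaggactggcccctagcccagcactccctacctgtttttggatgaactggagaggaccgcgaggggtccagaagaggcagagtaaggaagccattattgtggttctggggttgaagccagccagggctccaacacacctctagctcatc
Tdgf1, chr9:110946159-110946408, minus strand: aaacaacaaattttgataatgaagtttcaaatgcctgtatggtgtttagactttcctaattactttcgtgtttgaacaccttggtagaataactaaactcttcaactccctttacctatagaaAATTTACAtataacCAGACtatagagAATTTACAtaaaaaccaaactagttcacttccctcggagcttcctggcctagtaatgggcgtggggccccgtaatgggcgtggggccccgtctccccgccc
Cer1, chr4:82885152-82885401, minus strand: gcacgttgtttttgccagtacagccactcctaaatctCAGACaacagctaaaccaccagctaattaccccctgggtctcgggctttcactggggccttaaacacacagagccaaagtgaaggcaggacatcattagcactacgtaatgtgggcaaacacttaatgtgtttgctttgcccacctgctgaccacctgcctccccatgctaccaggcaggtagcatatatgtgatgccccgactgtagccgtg
The Tdgf1 window held 2 matches to the Foxh1 motif with 1 match to the Smad motif between them. Of the 32851 promoter windows of this length, 10.9% held the Foxh1 motif and 42.2% the Smad motif. At least 2 of the first with at least 1 of the second were held by 0.405%. That combination was taken from the Tdgf1 window itself, so its share is not a test. Bases G and C made up 42.0% of the Tdgf1 window, beside a median of 52.4% over all windows. The part of base content in the matches was not tested. The windows of Cer1 and Acvr2b each held 1 Smad match and no Foxh1 match, and the Nodal window held neither. None of the 4 windows held AGGTGTGA, a T-box motif found in 1.12% of windows, or the MEF2 consensus, found in 2.92%. A match is a description of the letters in the window.

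The study's question for the 2 perturbed lines is what changes with the noncoding RNA deleted or with Mef2c targeted. A gene was called higher or lower where log2((value + 1)/(value + 1)) reached 2-fold, among features whose mean in the compared libraries was at least 1. At day 5, shMef2c was higher than shCtrl in 8 of the 9 genes and lower in none, where 4.49% of all 13041 features tested were higher and 4.78% lower. In KO at day 5, 2 genes, Lefty1 and Lefty2, were higher than in WT and 1, Cer1, was lower, where 4.05% of 12832 features were higher and 3.26% lower. At day 0, KO was lower than WT in 2 of the 8 genes that passed the filter, again Lefty1 and Lefty2, and higher in none, with 1.35% of all 12002 features higher and 1.58% lower. The library labelled shMef2c was 2-fold higher than shCtrl at day 0 in 0 of 8 and lower in 0 of 8, beside 0.132% of all 12103 features higher and 0.0991% lower. Cer1 did not pass the filter at day 0.

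**Figure D1:**
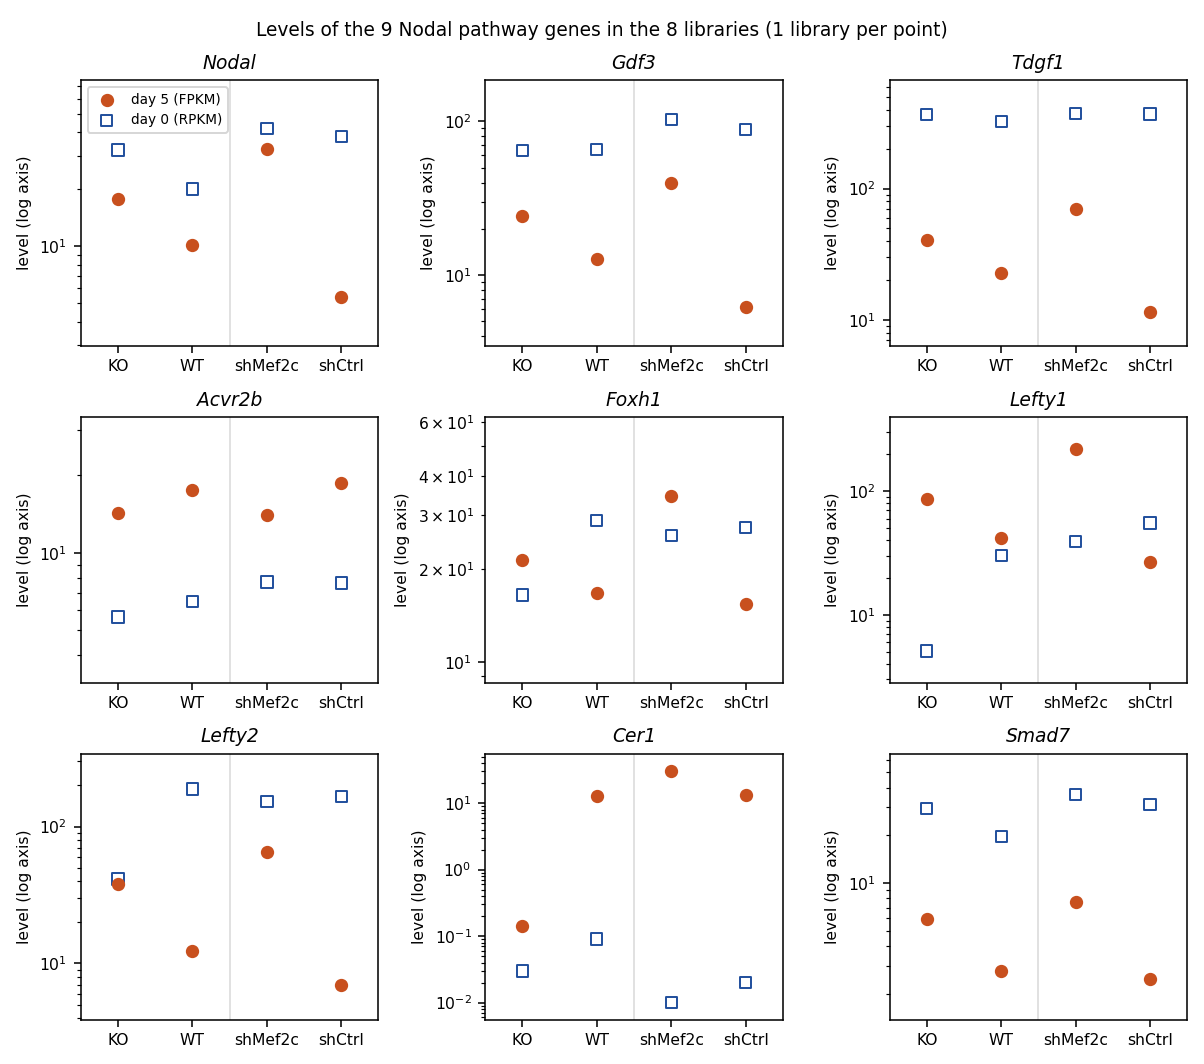
Levels of the 9 genes by line on log axes, day 5 in FPKM (filled circles) and day 0 in RPKM (open squares), 1 library per point. At day 5 shMef2c is the highest library for every gene but Acvr2b, and at day 0 KO is the lowest for Lefty1 (5.09 RPKM) and Lefty2 (41.4 RPKM).

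At day 5 the median log2 ratio of the 9 genes was 2.39 in shMef2c against shCtrl, beside -0.05 over all features tested, and 0.80 in KO against WT, beside 0.00. Against the other control library the medians were 1.57 in shMef2c against WT and 1.55 in KO against shCtrl, which have different denominators. On a shared control shMef2c lay above KO, at 2.39 and 1.55 over shCtrl and at 1.57 and 0.80 over WT. The control libraries differed in the same genes, which bears on how these medians read. For shCtrl over WT at day 5 the median of the 9 genes was -0.64 and 0 genes passed 2-fold, beside 0.724% of 12845 features higher and 0.272% lower. At day 0 that median was 0.31 over 8 genes and 0 passed 2-fold, beside 0.755% of 11921 features higher and 0.512% lower. Set against the other control library at day 5, KO was higher than shCtrl in 6 genes and lower in 1 (4.65% and 5.52% of 13041 features), and shMef2c was higher than WT in 8 and lower in 0 (3.99% and 3.22% of 12844). At day 0, KO was lower than shCtrl in 2 and higher in 0 (0.966% and 0.833% of 12006), and the library labelled shMef2c was higher than WT in 1, Nodal, and lower in 0 (1.91% and 0.687% of 12087). The day 5 level stood in the order shMef2c, KO, WT, shCtrl for 7 of the 9 genes, namely Nodal, Gdf3, Tdgf1, Foxh1, Lefty1, Lefty2 and Smad7. Of 12974 features with a mean of 1 or more, 6.46% stood in that order. The order was set with the members' levels known, so that share is a description and not a test. For Foxh1 and Smad7 the last step, WT above shCtrl, was not separated by counting error. In bulk libraries, fewer cells expressing a gene and less RNA per cell cannot be told apart.

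**Figure D2:**
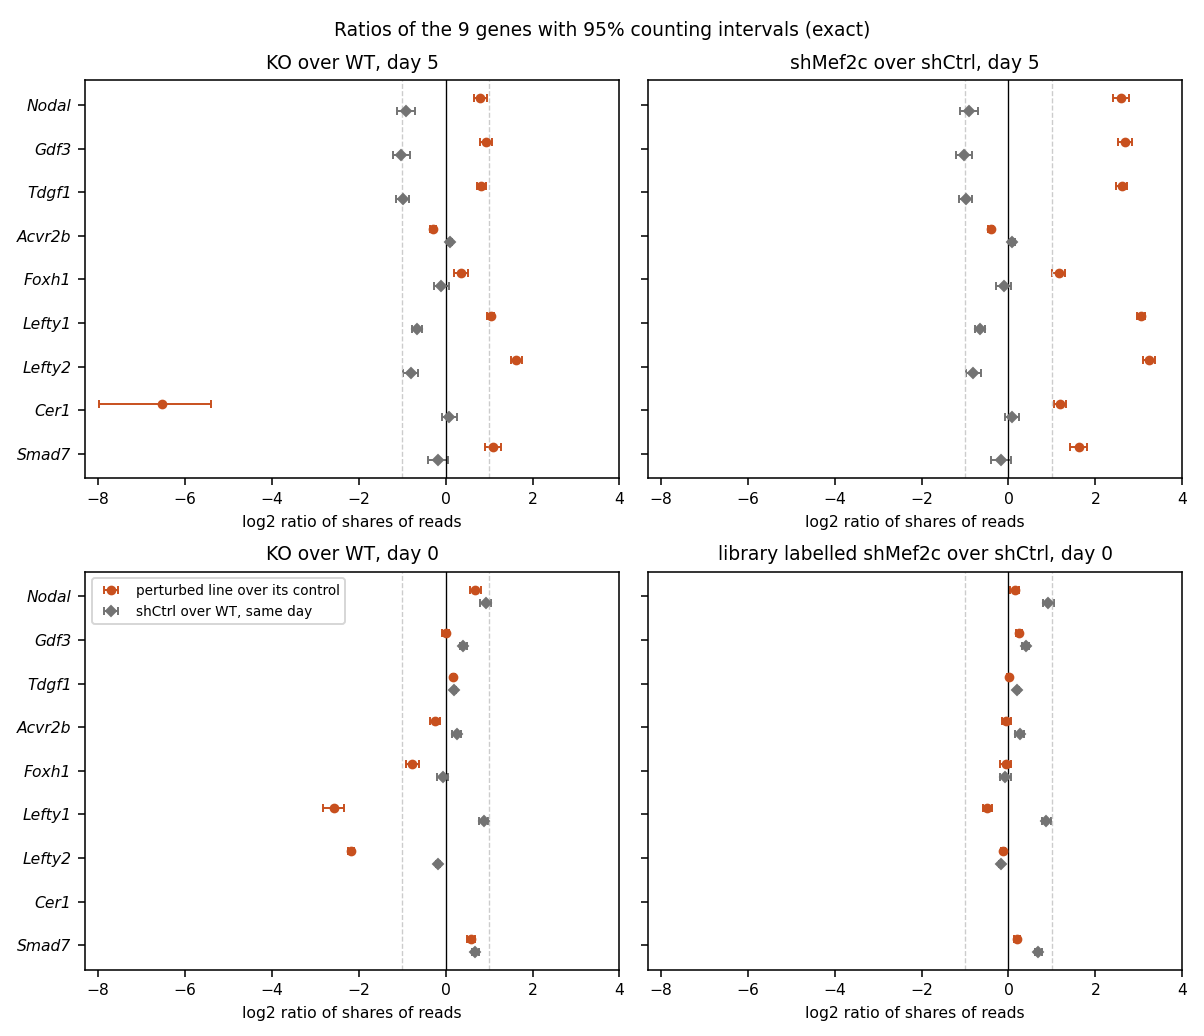
log2 ratio of each gene's share of estimated reads with its exact 95% counting interval, for each perturbed line over its control (circles) and for shCtrl over WT of the same day (diamonds), dashed lines at 2-fold. At day 5, 8 of 9 circles lie above 0 for shMef2c and 7 of 9 for KO, and at day 0 Lefty1 and Lefty2 lie below 0 for KO. Cer1 is not drawn at day 0.

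Nodal (gene 18119, chromosome 10) stood at 17.7 FPKM in KO and 10.2 in WT, and at 32.5 in shMef2c and 5.38 in shCtrl at day 5. Day 0 levels were 32.2 RPKM in KO and 20.1 in WT, and 41.8 in the library labelled shMef2c and 37.9 in shCtrl. The 4 day 5 levels all differed from their neighbours in order by more than counting error. By share of reads, shMef2c was 6.02 times shCtrl (95% counting interval 5.31 to 6.85) and KO was 1.74 times WT (1.56 to 1.93) at day 5. The KO ratio at day 0 was close to that at day 5, 1.60 (1.47 to 1.75), while shCtrl over WT at day 0 was larger, 1.89 (1.74 to 2.05). At day 5 WT over shCtrl was 1.89 (1.63 to 2.18). For Nodal the ratio of KO to WT was thus no larger than the ratio between the control libraries on both days, with overlapping intervals. Against shCtrl the day 0 log2 ratio of KO was -0.23, although KO lay above both controls at day 5. The day 5 ratio of shMef2c to either control was larger than that between the controls.

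Gdf3 (gene 14562, chromosome 6), a TGF-beta family ligand that acts with Nodal in the early embryo, stood at 24.1 FPKM in KO and 12.7 in WT, and at 39.9 in shMef2c and 6.23 in shCtrl at day 5. Its day 0 levels were 64.9 RPKM in KO and 65.7 in WT, and 102.9 in the library labelled shMef2c and 88.2 in shCtrl. At day 5, shMef2c held 6.40 times the share of shCtrl (5.70 to 7.21) and KO 1.90 times that of WT (1.73 to 2.09). The control libraries themselves differed by a size similar to KO and WT, shCtrl holding 0.493 times the share of WT (0.431 to 0.563). Taken as WT over shCtrl, the ratio was 2.03 (1.78 to 2.32), an interval that overlaps that of KO over WT. Against the other control, the ratio was 3.16 for shMef2c over WT and 3.86 for KO over shCtrl. At day 0, KO and WT were not separated by counting error (ratio 0.999, interval 0.941 to 1.06).

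Tdgf1 (gene 21667, chromosome 9) encodes Cripto, the EGF-CFC co-receptor, and was the most abundant of the 9 genes at day 0. It stood at 365 RPKM in KO and 323 in WT, and at 372 in the library labelled shMef2c and 371 in shCtrl, the last pair not separated by counting error. At day 5 it was far lower and spread out, with 40.3 FPKM in KO and 22.7 in WT, and 69.7 in shMef2c and 11.4 in shCtrl. The share in shMef2c was 6.09 times that in shCtrl (5.57 to 6.67), and the share in KO was 1.77 times that in WT (1.64 to 1.90). Here too the controls differed by a size similar to KO and WT, with shCtrl at 0.504 times the share of WT (0.455 to 0.558). Taken as WT over shCtrl, the ratio was 1.98 (1.79 to 2.20), an interval that overlaps that of KO over WT. Against the other control, the ratio was 3.07 for shMef2c over WT and 3.51 for KO over shCtrl. Its estimated day 5 counts are not all whole numbers, so reads shared with related sequences make its level less certain.

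Tdgf1 kept nearly the same ratio to Nodal in every day 5 library, although both genes differed several-fold between them. The Tdgf1 level was 2.27 times the Nodal level in KO and 2.23 times in WT, and 2.15 times in shMef2c and 2.12 times in shCtrl. At day 0 the same ratio was 11.3 in KO and 16.1 in WT, and 8.90 in the library labelled shMef2c and 9.79 in shCtrl. The ratio of Gdf3 to Nodal at day 5 was likewise narrow, 1.36 in KO and 1.25 in WT, and 1.23 in shMef2c and 1.16 in shCtrl.

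**Figure D3:**
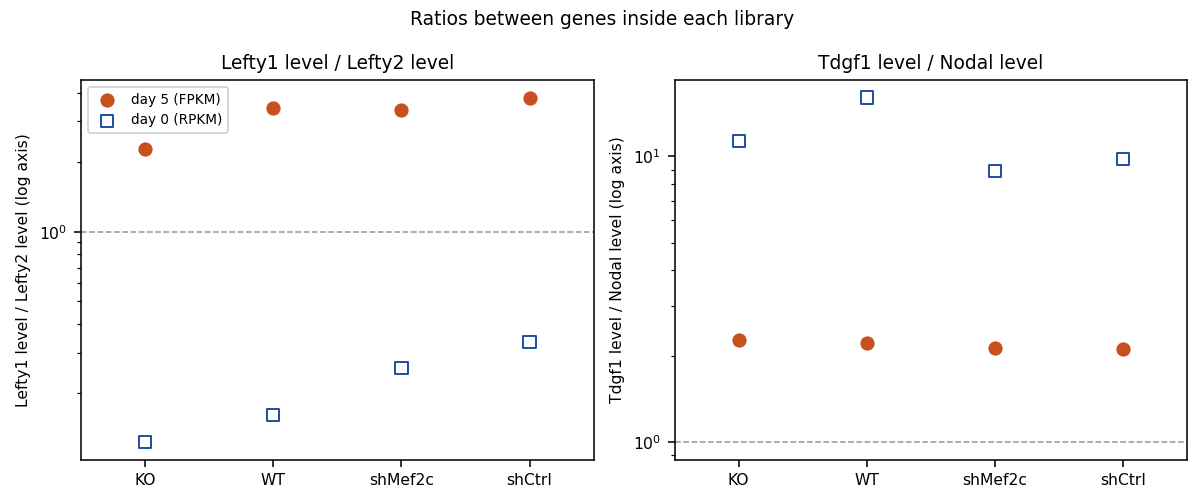
Ratio of the Lefty1 level to the Lefty2 level (left) and of the Tdgf1 level to the Nodal level (right) inside each library, on log axes, day 5 as filled circles and day 0 as open squares, dashed line at 1. The Lefty ratio lies between 2.28 and 3.81 in the 4 day 5 libraries and between 0.123 and 0.334 in the 4 day 0 libraries.

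Acvr2b (gene 11481, chromosome 9), a type II activin receptor that Nodal signals through, was the gene with the least spread at day 5. It stood at 14.3 FPKM in KO and 17.6 in WT, and at 14.1 in shMef2c and 18.7 in shCtrl at day 5. Its day 0 levels were 5.64 RPKM in KO and 6.48 in WT, and 7.70 in the library labelled shMef2c and 7.64 in shCtrl. At day 5 the perturbed lines lay below their controls, with log2 ratios of -0.28 in KO and -0.39 in shMef2c, both under 2-fold. KO and shMef2c were not separated from each other by counting error.

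Foxh1 (gene 14106, chromosome 15), the forkhead partner of Smad2 and Smad3, stood at 21.4 FPKM in KO and 16.7 in WT, and at 34.5 in shMef2c and 15.4 in shCtrl at day 5. Its day 0 levels were 16.5 RPKM in KO and 28.8 in WT, and 25.7 in the library labelled shMef2c and 27.3 in shCtrl. KO was the lowest day 0 library, at 0.588 times the share of WT (0.530 to 0.652), and neighbours in order among the other 3 day 0 libraries were not separated by counting error. At day 5 shMef2c held 2.23 times the share of shCtrl (2.01 to 2.48), and WT and shCtrl were not separated.

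Lefty1 (gene 13590) and Lefty2 (gene 320202) encode secreted inhibitors that bind Nodal and its co-receptor, and both lie on chromosome 1. At day 5 Lefty1 stood at 86.6 FPKM in KO and 42.2 in WT, and at 221 in shMef2c and 26.6 in shCtrl. At day 0 it stood at 5.09 RPKM in KO and 30.2 in WT, and at 39.3 in the library labelled shMef2c and 55.4 in shCtrl. KO was thus above both control libraries at day 5 and below both at day 0. By share of reads, KO was 2.05 times WT (1.94 to 2.17) at day 5 and 0.168 times WT (0.142 to 0.199) at day 0.

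Lefty2 showed the same reversal in KO. At day 5 it stood at 37.9 FPKM in KO and 12.3 in WT, and at 65.5 in shMef2c and 6.99 in shCtrl. At day 0 it stood at 41.4 RPKM in KO and 188 in WT, and at 152 in the library labelled shMef2c and 166 in shCtrl. By share of reads, KO was 3.09 times WT (2.85 to 3.35) at day 5 and 0.220 times WT (0.210 to 0.231) at day 0, and shMef2c was 9.37 times shCtrl (8.49 to 10.4) at day 5. At day 0 Nodal itself was higher in KO than in WT, so its ratio to the inhibitors differed: the Lefty2 level was 1.29 times the Nodal level in KO and 9.36 times in WT. The estimated counts of both Lefty genes are not all whole numbers, and reads from their shared sequence can be split between them, so their sum is also given. The summed level of Lefty1 and Lefty2 at day 0 was 46.5 RPKM in KO and 218 in WT, and at day 5 it was 125 FPKM in KO and 54.4 in WT.

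The balance between the Lefty genes turned over between the days in every line. At day 5 the Lefty1 level was 2.28 times the Lefty2 level in KO and 3.44 times in WT, and 3.37 times in shMef2c and 3.81 times in shCtrl. At day 0 it was 0.123 times in KO and 0.161 times in WT, and 0.258 times in the library labelled shMef2c and 0.334 times in shCtrl. Within each library this ratio does not depend on the scaling of that library.

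In the gene order of the GRCm38.p6 assembly, among genes measured in both tables, Tmem63a follows Lefty1. At day 0 Tmem63a stood at 2.09 RPKM in KO and 4.34 in WT (log2 ratio -0.79), under 2-fold. Other genes near the pair had ratios above 0, among them Sde2 at 32.5 RPKM in KO and 30.0 in WT (0.11) and Ephx1 at 21.2 in KO and 17.0 in WT (0.30). These neighbours were chosen after the Lefty values were seen.

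Cer1 (gene 12622, chromosome 4) encodes Cerberus-like, a secreted inhibitor of Nodal made by anterior endoderm. At day 5 it stood at 0.14 FPKM in KO and 12.6 in WT, and at 30.3 in shMef2c and 13.3 in shCtrl. WT and shCtrl were not separated by counting error (ratio 1.06 for shCtrl over WT, 0.940 to 1.19), KO stood far below them, and shMef2c stood above. The KO library held 6 reads against 562 in WT, a share of 0.0108 times (0.00395 to 0.0237), and shMef2c held 2.28 times the share of shCtrl (2.06 to 2.52). At day 0 Cer1 was at 0.09 RPKM or less, with 3.13 estimated reads at most, so no fold is given. Of the 9 genes, Cer1 alone had opposite calls in the perturbed lines at day 5. Other genes of anterior visceral endoderm did not all go with it, and their direction in KO depended on the control. Of 5 such genes, 1 was lower and 2 were higher in KO than in WT, with a median log2 ratio of -0.05. Against shCtrl 3 were lower and 0 higher, with a median of -1.20. Of all features, 3.26% were lower and 4.05% higher against WT, and 5.52% and 4.65% against shCtrl. Over that list of 5 genes, which shares Lhx1 with the mesendoderm targets, the summed day 5 level was 55.3 FPKM in KO and 35.7 in WT, and 63.8 in shMef2c and 74.8 in shCtrl, with none at 0 in any library. Otx2 made up most of the KO sum, at 37.6 FPKM.

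Smad7 (gene 17131, chromosome 18), an intracellular inhibitor of TGF-beta family receptors and a feedback target of their Smads, stood at 5.96 FPKM in KO and 2.80 in WT, and at 7.61 in shMef2c and 2.48 in shCtrl at day 5. Its day 0 levels were 29.6 RPKM in KO and 19.6 in WT, and 36.2 in the library labelled shMef2c and 31.5 in shCtrl. At day 5 the control libraries were not separated by counting error, KO held 2.13 times the share of WT (1.86 to 2.43) and shMef2c 3.07 times that of shCtrl (2.68 to 3.52). At day 0 KO lay above WT and slightly below shCtrl. With a pseudocount of 1 the day 5 log2 ratio of KO to WT was 0.87, under 2-fold, and that of KO to shCtrl was 1.00, just at it. The authors' deposited table for KO over WT lists Smad7 with a log2 ratio of 1.09, besides Lefty1, Lefty2 and Cer1, and their deposited table for shMef2c over shCtrl lists every one of the 9 genes but Acvr2b.

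Comparing day 5 with day 0 in each line asks how the genes go with differentiation. The tables were normalized separately, so each log2 ratio was taken relative to the median feature shared by the tables, and levels are set side by side with that limit. In shCtrl 6 of 9 genes were 2-fold or more lower at day 5 and 2 were higher, beside 15.3% of 12182 features lower and 15.3% higher. In WT 4 of 9 were lower and 2 higher (14.7% and 15.3% of 11989). In KO 3 of the 8 tested were lower and 2 higher (9.79% and 10.1% of 12015), and in shMef2c 4 of 9 were lower and 2 higher (9.50% and 9.37% of 12129). Gdf3, Tdgf1 and Smad7 were lower at day 5 in every line. The higher genes were Acvr2b with Lefty1 in KO, Acvr2b with Cer1 in WT and in shCtrl, and Lefty1 with Cer1 in shMef2c. The size of the Cer1 ratio depends on the pseudocount, since Cer1 was near 0 at day 0. Tdgf1 had log2 ratios of -3.16 in KO and -3.79 in WT, and -2.36 in shMef2c and -4.98 in shCtrl.

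The inhibitors parted between the days. Lefty1 had a day 5 over day 0 log2 ratio of 3.83 in KO and 0.45 in WT, and 2.50 in shMef2c and -1.10 in shCtrl. Lefty2 had -0.14 in KO and -3.85 in WT, and -1.17 in shMef2c and -4.46 in shCtrl. Lefty1 was therefore 2-fold or more higher at day 5 in the perturbed lines, under 2-fold in WT and lower in shCtrl, and Lefty2 was lower by that size in every line but KO. Nodal was 2-fold or more lower at day 5 in shCtrl (-2.68) and not in KO (-0.84), WT (-0.94) or shMef2c (-0.32). For Foxh1 the values depend on gene length. Its day 0 RPKM imply a length 124% of that in the day 5 tables, and its level ratio of 1.30 in KO was 0.971 by share of reads (0.869 to 1.09), while its ratio of 1.34 in shMef2c was 1.02 by share (0.933 to 1.11). By share, without centring, Foxh1 at 0.446 in WT and 0.436 in shCtrl was more than 2-fold lower at day 5, as was Nodal in WT at 0.488, and these are not in the counts of lower genes given for levels. For Gdf3 the implied day 0 length was 75.9%, and its WT ratio was 0.193 by level and 0.244 by share, so its direction held.

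The rest of the pathway was described over 5 lists. Of 6 Smads and nuclear partners, such as Smad2, Smad3 and Smad4, 0 differed by 2-fold in any of the 4 comparisons with a matched control, with day 5 medians of -0.04 for KO and -0.25 for shMef2c. Smad3 stood at 10.5 FPKM in KO and 16.1 in WT, and at 10.7 in shMef2c and 16.8 in shCtrl. Zfyve9, which presents Smads to the receptor, stood at 10.3 in KO and 13.9 in WT, and at 10.1 in shMef2c and 14.4 in shCtrl. Among 15 other inhibitors and feedback genes, 0 of the 13 tested in KO and 0 of the 15 tested in shMef2c passed 2-fold at day 5. In that list the activin-binding protein gene Fst stood at 18.3 FPKM in KO and 29.1 in WT, and Pmepa1, a target and inhibitor of TGF-beta signalling, at 3.28 in shMef2c and 1.52 in shCtrl. Dact2, which promotes turnover of Nodal receptors in zebrafish, stood at 4.71 in KO and 2.61 in WT, and at 6.91 in shMef2c and 3.61 in shCtrl.

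Among the 6 other ligands and convertases at day 5, 1 of 4 tested was higher in KO, Pcsk6, a protease that cleaves Nodal precursor, at 7.42 FPKM against 2.98 in WT. It stood at 5.58 in shMef2c and 2.51 in shCtrl, under 2-fold on the scale used. Gdf1, which pairs with Nodal, stood at 3.45 in KO and 7.15 in WT. The inhibin subunit gene Inha was the 1 of 4 lower in shMef2c, at 0.84 against 2.88 in shCtrl. That call rested on the shCtrl library, since Inha stood at 1.62 in WT and 0 of 4 were lower in shMef2c than in WT. Among the 3 tested of 4 receptor and co-receptor genes, Cfc1, which encodes the other EGF-CFC co-receptor Cryptic, was higher in shMef2c at 14.4 FPKM against 4.15 in shCtrl, and stood at 1.86 in KO and 3.97 in WT. The receptor gene Acvr2a stood at 5.31 in KO and 6.35 in WT, and at 4.04 in shMef2c and 7.71 in shCtrl.

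The mesendoderm targets went opposite ways in the perturbed lines at day 5. In KO 4 of 9 tested were 2-fold or more lower and 0 higher, with a median log2 ratio of -0.59, and in shMef2c 6 of 10 were higher and 0 lower, with a median of 1.11. The T-box gene T stood at 0.35 FPKM in KO and 40.5 in WT, and at 106 in shMef2c and 36.6 in shCtrl. The homeobox gene Gsc stood at 0.38 in KO and 4.83 in WT, and at 15.1 in shMef2c and 6.41 in shCtrl. Fgf8, a growth factor of the primitive streak, stood at 32.6 in shMef2c and 6.73 in shCtrl, and the streak gene Mixl1 at 5.25 in shMef2c and 0.61 in shCtrl. Lower in KO were T, Gsc, Foxa2 (6.45 against 30.4 in WT) and Lhx1 (0.96 against 3.40). Cer1 thus went with T and Gsc in KO, and Nodal, Gdf3, Tdgf1 and the Lefty genes did not.

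**Figure D4:**
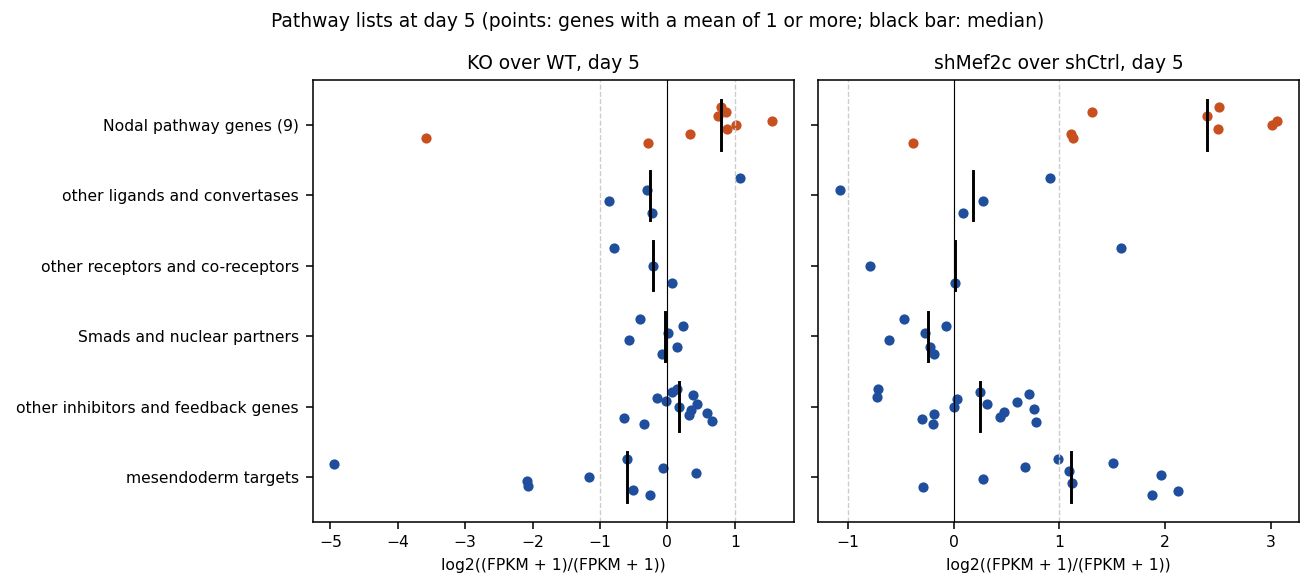
log2((FPKM + 1)/(FPKM + 1)) at day 5 of the 9 genes and of 5 lists of other pathway genes, for KO over WT (left) and shMef2c over shCtrl (right), 1 point per gene, black bars at the median and dashed lines at 2-fold. The mesendoderm targets have a median of -0.59 in KO and 1.11 in shMef2c, and the Smads lie within 2-fold in both.

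At day 0 the matched comparisons held few calls in these lists. In KO the targets T, at 1.19 RPKM against 6.25 in WT, and Eomes, a T-box gene, at 6.53 against 1.41, passed 2-fold in opposite directions. The Eomes call rested on the WT library, since shCtrl stood at 4.60 RPKM and the log2 ratio of KO to shCtrl was 0.43, under 2-fold. T stood at 5.63 RPKM in shCtrl, so it was lower in KO against either control. The library labelled shMef2c passed it in 0 genes of the 5 lists.

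Of the marker lists, the naive pluripotency genes went with the members at day 5 and the neural genes went the other way. Of the visceral endoderm genes tested, 8 of 9 were higher and 0 lower in KO than in WT. In shMef2c, 3 of 5 were lower and 0 higher than in shCtrl. Against shCtrl, 5 of 10 were higher in KO and 1 was lower, with a median log2 ratio of 1.30. The direction in shMef2c depended on the control, since its median log2 ratio was -1.25 against shCtrl and 0.93 against WT. That of shCtrl over WT was 1.42. The 10 naive pluripotency markers summed to 1968 FPKM in KO and 754 in WT, and to 2483 in shMef2c and 515 in shCtrl at day 5. The order of libraries was the same as for Nodal. Dppa5a made up most of each sum, at 1356 FPKM in KO and 454 in WT, and 1642 in shMef2c and 295 in shCtrl. Of the 10 markers, 8 were higher in KO and 10 in shMef2c by 2-fold or more. The 10 neural progenitor markers summed to 122 FPKM in KO and 388 in WT, and to 53.2 in shMef2c and 453 in shCtrl. The 11 visceral endoderm markers summed to 127 FPKM in KO and 13.1 in WT, and to 22.5 in shMef2c and 65.7 in shCtrl, with none at 0 at day 5. The 9 feeder fibroblast markers summed to between 17.0 and 21.3 FPKM at day 5 and between 195 and 354 RPKM at day 0. The part of cell state, endoderm and feeder content in the members' values was not tested.

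For Nodal, Lefty1 and Cer1 the genes with the most similar pattern were ranked by Pearson's r over the 8 libraries, on log2(value + 1) centred within each day's table, among genes with a mean of 1 or more in each table and a spread of 0.3 or more. The ratio between days is removed by that centring, and the points share libraries, so r is a description. Among the 5 genes closest to Nodal of 2231 ranked were Rinl (r = 0.98), H2-M5 (0.98), Ass1 (0.98) and Klf4 (0.97), the last also one of the naive pluripotency markers. Gdf3 ranked 7, Smad7 12 and Tdgf1 24 by likeness to Nodal, while Lefty2 ranked 425 and Lefty1 489. Among the 5 closest to Lefty1 were its chromosomal neighbour Tmem63a (0.97), Gjb5 (0.97), Enox1 (0.96) and Tfe3 (0.96), with Lefty2 at rank 14 and Foxh1 at rank 17. Closest to Cer1 were Pde9a (0.99), Fam210b (0.97), T (0.96), Oxct1 (0.93) and Flt1 (0.93), and that ranking rests on the day 5 libraries, since Cer1 was near 0 at day 0.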

How the data were processed

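The members and gene lists were chosen with earlier results of these data known. The authors deposited, for each day 5 library, estimated counts per gene (expected counts) and FPKM values, per the file headers. For day 0 they deposited RPKM values and estimated counts in 1 table, per the file headers. Their day 5 comparisons list log2 ratios with p-values, from a Poisson method according to the deposited labels. Tools named in the submitters' processing notes, without role or version, are RSEM, Bowtie, Bowtie2, HISAT and HISAT2, with build mm9. The strand setting of the counting was not found in the sources. Day 5 genes under 0.01 FPKM are not listed and were taken as 0.

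Ratios were log2((value + 1)/(value + 1)) over features with a mean of 1 or more, called at 2-fold. Named genes are the 9 members, the 2 list genes with the largest ratios per comparison, and the 5 genes most like Nodal, Lefty1 and Cer1. Some genes that the rule names are not reported here. Further list genes, marker sums and Lefty neighbours were added after values were seen. Ratios of read shares carry exact (Clopper-Pearson) 95% intervals, from rounded estimated counts. They cover counting error only, since reads are not independent molecules and cultures differ. Alternatives tried were folds of 1.5 and 4, the other control library, TPM, TMM factors (edgeR 4.0.16), DESeq2 1.42.0 size factors, centring or none, a smaller pseudocount (0.1), a minimum mean of 5 or none, and the authors' deposited tables. Estimated counts were rounded for edgeR and DESeq2. Names, chromosomes and gene order came from a RefSeq table of GRCm38.p6. Python 3.11.15, scipy 1.17.1 and R 4.3.3 were used.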

Additional observations from a re-analysis of the deposited data

Results flagged for a closer look

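Lefty1 and Lefty2 had calls in opposite directions for KO over WT on the 2 days. The log2 ratio of Lefty1 was 1.02 at day 5 and -2.36 at day 0, and that of Lefty2 was 1.55 at day 5 and -2.15 at day 0. Against shCtrl in place of WT the ratios were 1.67 at day 5 and -3.21 at day 0 for Lefty1, and 2.28 at day 5 and -1.97 at day 0 for Lefty2. Cer1 had calls in opposite directions in the perturbed lines at day 5, with a log2 ratio of -3.58 in KO against WT and 1.13 in shMef2c against shCtrl. With 1 library per group these differences were not tested.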

How the results depend on the processing

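Of 279 alternative values for ratios past 2-fold, 0 changed sign, and of 355 for ratios under 2-fold, 12 did, over 7 ratios. Against the other control library at day 0, KO ratios under 2-fold changed sign for Nodal (-0.23), Smad7 (-0.09) and Tdgf1 (-0.02), and the ratio of the library labelled shMef2c for Lefty1 (0.37). With TMM and with DESeq2 factors the day 5 over day 0 ratio of Foxh1 in KO was -0.05. Acvr2b and Tdgf1 in the library labelled shMef2c at day 0, near 0 as reported, made up the rest. Of all 634 values, 518 moved by less than their counting interval. Most counts of members past 2-fold were within 1.5 times of the reported count, with these exceptions. For KO over WT at day 5, 6 genes were higher against the other control library, shCtrl, in place of 2 against WT, 6 at a fold of 1.5 and 0 at a fold of 4. For shMef2c over shCtrl at day 5, 5 genes were higher at a fold of 4. At day 0, 1 gene was higher in KO at a fold of 1.5, and 1, Nodal, was higher in the library labelled shMef2c against WT. For shCtrl over WT at day 5, 1 gene was lower with a pseudocount of 0.1, 2 with TMM factors, 2 with DESeq2 size factors and 5 at a fold of 1.5, and at day 0, 3 were higher at a fold of 1.5. For day 5 over day 0 at a fold of 4, 1 gene was higher in KO, 1 in WT and 1 in shCtrl, and 2 were lower in shMef2c. Shares of all features at the other folds, pseudocount and factors are not given. The counts at those settings therefore show only how the members' calls move. No paired analysis was possible because each group is 1 library. Depth limits Cer1 at day 0, where no library held over 3.13 estimated reads.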

Other observations

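The activin subunit gene Inhba stood at 10.2 RPKM in the library labelled shMef2c and 4.91 in shCtrl at day 0, and at 6.21 in KO and 6.03 in WT. At day 5 it stood at 0.10 FPKM or less in every library. The feeder fibroblast markers were also highest in the library labelled shMef2c at day 0, while the other 3 libraries stood in another order than for Inhba, with summed levels of 354 RPKM in the library labelled shMef2c and 216 in shCtrl, and 195 in KO and 209 in WT. The part of feeder content in the Inhba level was not tested.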
